A study of Mus musculus with 10 samples.

Results

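Genes that B lymphocytes use most were followed in dendritic cells (DCs) isolated from mouse spleen: Bank1, Cd22, Cd79a, Cd79b, Ms4a1, Pax5, Blk, Cr2 and Fcer2a. These 9 genes were taken as a named list, and each was read from its probe set with 1 gene symbol and the highest mean over the 10 arrays. They are 9 of 22180 genes with such a probe set, and all 9 were among the 13371 genes tested. Expression was measured on Affymetrix Mouse Gene 2.0 ST arrays, 1 array per sample, as log2 intensities normalized by the authors with RMA. The samples were CD11c+ cells that magnetic beads had isolated from spleen 4 h after the mice received 100 µg CpG, a DNA ligand of Toll-like receptor 9, or vehicle. The 4 groups were these: C3ar1-/-C5ar1-/- mice (DKO, lacking both anaphylatoxin receptors) given CpG (n = 3), DKO mice given vehicle and labelled unstimulated (n = 2), wild-type (WT) mice given CpG (n = 3) and unstimulated WT mice (n = 2). The labels give no age, sex or strain, and do not say that the samples of a group came from separate animals, so p-values measure only the spread between these samples.

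B cells recognise antigen through a membrane immunoglobulin that signals through the paired chains Cd79a and Cd79b. Src-family kinases such as Blk start that signal and the adaptor Bank1 takes part in it, while the sialic acid-binding lectin Cd22 dampens it and Cr2 (CD21), a receptor for complement C3 fragments, enhances it. Ms4a1 (CD20) and Fcer2a (CD23, the low-affinity IgE receptor) are surface proteins of mature B cells, and Pax5 is the transcription factor that commits cells to the B lineage. The spleen is rich in B cells, and an isolation on CD11c alone does not remove every other cell. Some of these genes are also transcribed in DC subsets, so a probe set value in such an isolate does not name the cell it came from.

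All 10 arrays carried the markers of the labelled cell type. Itgax, which encodes CD11c, ranged over 10.72 to 11.89 log2 units, the MHC class II chain H2-Ab1 over 13.40 to 13.68, the DC growth factor receptor Flt3 over 9.79 to 10.59 and the DC transcription factor Zbtb46 over 7.37 to 8.18. Both targeted genes were lower on all 5 DKO arrays than on all 5 WT arrays: C3ar1 lay at 5.27 to 5.64 in DKO and 5.80 to 6.59 in WT, and C5ar1 at 4.42 to 4.99 in DKO and 5.51 to 7.32 in WT. Array medians spanned 5.50 to 5.56, and the 8 pairs of arrays within a group correlated at 0.964 to 0.989. Some DKO arrays stood apart. DKO CpG 3 and DKO unstimulated 2 had mean levels of 11 splenic macrophage markers of 8.47 and 8.78, against 10.01 to 10.50 on the other 8 arrays. The remaining 3 DKO arrays carried Y-linked transcripts, at a mean of 7.33 or more, whereas no other array exceeded 3.68. In DKO both divisions coincide with the numbering of the sample titles, so that sex, macrophage content and any processing batch cannot be told apart there.

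Most of the 9 genes lay near the middle of the arrays' intensity range. Bank1, Cd22, Cd79a, Cd79b, Ms4a1, Pax5 and Blk exceeded the array median on 10 of 10 arrays, Cr2 on 7 and Fcer2a on 2. Values near or below the median may be near background, since no detection calls were used. Pax5, the lineage factor of the list, ranged over 5.66 to 6.56, and Ebf1, another factor of early B cells, over 5.62 to 6.32.

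Several of the B cell genes fell after CpG, in DKO and in WT isolates. In DKO, Cd22 fell to 38.2% of its unstimulated intensity, Blk to 62.1% and Bank1 to 67.3%, which made 3 of 9 genes lower and 0 higher at an adjusted p under 0.05 (limma, Benjamini-Hochberg over 13371 genes). Of all genes tested, 5.76% were lower and 4.54% higher in that comparison. In WT, Bank1 fell to 33.8%, Cd22 to 36.9%, Cr2 to 45.9%, Cd79b to 50.4% and Blk to 65.7%, 5 of 9 genes, against 13.3% of all genes lower and 8.24% higher. Averaged over both genotypes, 6 of 9 fell, Ms4a1 with them, against 18.6% of all genes lower and 11.2% higher. Cd79a, Pax5 and Fcer2a passed the test in none of these comparisons. The median difference of the 9 genes was -0.57 log2 units in DKO, -0.62 in WT and -0.68 on average, and the median of all genes was -0.04, -0.04 and -0.03. In bulk isolates, fewer B cells and less of these RNAs per cell cannot be told apart.

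**Figure D1:**
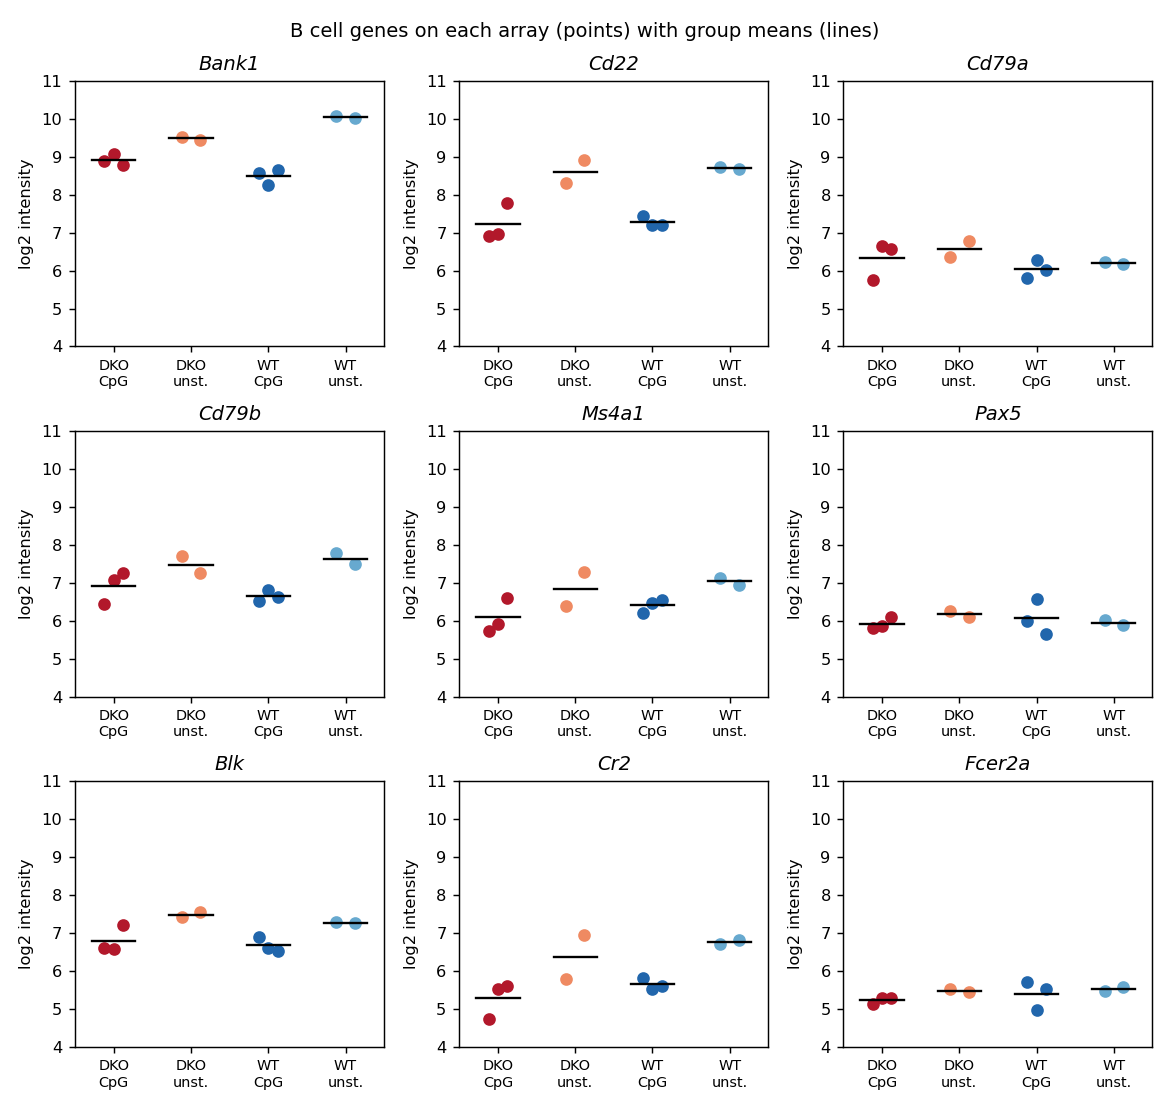
Log2 RMA intensity (vertical axes) of the 9 B cell genes in DKO CpG (n = 3), DKO unstimulated (n = 2), WT CpG (n = 3) and WT unstimulated (n = 2) isolates, 1 panel per gene, with 1 point per array and a bar at the group mean. Bank1, Cd22, Cd79b, Blk and Cr2 have all CpG arrays below all unstimulated arrays of the same genotype in both genotypes, while Cd79a and Pax5 overlap in both. The share of all genes with such a separation was not counted.

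Of the antigen receptor chains, Cd79b passed the test after CpG in WT and on average, and Cd79a in no CpG comparison. Cd79b was at 6.44, 7.07 and 7.25 on the DKO CpG arrays, against 7.70 and 7.26 on the DKO unstimulated arrays. In WT it was at 6.52, 6.81 and 6.63 after CpG, against 7.79 and 7.49 without stimulation. The groups did not overlap in either genotype, although DKO CpG 3 and DKO unstimulated 2 were only 0.01 apart. Here and below, separate groups only describe the arrays, since the share of all genes with such a separation was not counted. The difference was -0.56 ± 0.23 (SE) in DKO (adjusted p = 0.159) and -0.99 ± 0.23 in WT (adjusted p = 0.0121), and averaged over genotypes Cd79b fell by 0.78 ± 0.16 (adjusted p = 0.00491). The DKO difference was -0.32 without DKO CpG 1 (adjusted p = 0.369), -0.34 without DKO unstimulated 1 (0.545) and -0.95 without both DKO arrays low in macrophage markers (0.052). Without the array WT unstimulated 1, the WT difference was -0.84 with an adjusted p of 0.116. Cd79a, its partner in the receptor, was at 5.76, 6.66 and 6.57 in DKO CpG isolates, against 6.36 and 6.77 in DKO unstimulated isolates. WT isolates had 5.80, 6.28 and 6.01 after CpG, against 6.23 and 6.18 without it. CpG and unstimulated arrays overlapped in both genotypes, and DKO CpG 1 alone lay well below its group. The Cd79a difference averaged -0.20 log2 units (95% interval -0.60 to 0.20, adjusted p = 0.455), an interval that reaches from a moderate fall to a small rise. It overlapped the interval of Cd79b (-1.14 to -0.41), and a difference between the chains was not tested. Cd79a lay only 0.22 above the array median on DKO CpG 1 and 0.24 on WT CpG 1, where RMA may compress differences.

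Among the proteins that relay the signal, the adaptor Bank1 had the smallest standard error of the list for its CpG difference. It was at 8.89, 9.07 and 8.79 on DKO CpG arrays, against 9.52 and 9.46 on DKO unstimulated arrays. In WT it lay at 8.57, 8.26 and 8.65 after CpG, against 10.08 and 10.03 without stimulation. No group overlapped another: WT unstimulated was highest, followed by DKO unstimulated, DKO CpG and WT CpG. Bank1 fell by 0.57 ± 0.14 in DKO (adjusted p = 0.029), a 1.49-fold difference in intensity. In WT it fell by 1.56 ± 0.14 (adjusted p = 8.97e-05), a 2.96-fold difference. The WT call held under all 20 alternative settings. The DKO call was lost under 7, with adjusted p of 0.124 without DKO unstimulated 1, 0.111 without DKO unstimulated 2, 0.0776 without DKO CpG 1 and 0.0501 without DKO CpG 3. The kinase Blk was at 6.61, 6.57 and 7.20 in DKO CpG isolates, against 7.42 and 7.54 in DKO unstimulated isolates. In WT isolates it was at 6.89, 6.59 and 6.53 after CpG, against 7.29 and 7.26 without it. Every CpG array lay below every unstimulated array, also across genotypes. Blk fell by 0.69 ± 0.19 in DKO (adjusted p = 0.0452) and fell by 0.61 ± 0.19 in WT (adjusted p = 0.0445). Both calls sat at the threshold and were lost under 13 of 20 alternatives in DKO and 8 of 20 in WT. In each genotype leaving out either of the unstimulated arrays ended the call, with adjusted p of 0.114 and 0.205 in DKO and 0.19 and 0.164 in WT. The DKO call was also lost without any other single array but DKO CpG 3 (adjusted p = 0.0542 to 0.13), and the WT call without WT CpG 2, WT CpG 3 or either unstimulated DKO array (0.0556 to 0.122). On average over genotypes Blk fell by 0.65 ± 0.13 (adjusted p = 0.00459), and this call held under all 19 alternatives.

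The coreceptors, an inhibitor and an enhancer of the antigen receptor, were both lower after CpG. Cd22 was at 6.91, 6.95 and 7.79 in DKO CpG isolates, against 8.31 and 8.90 in DKO unstimulated isolates. WT CpG isolates had 7.44, 7.19 and 7.20, against 8.74 and 8.69 in WT unstimulated isolates. The CpG and unstimulated arrays did not overlap, and DKO CpG 3 was the highest CpG array. Cd22 fell by 1.39 ± 0.26 in DKO (adjusted p = 0.00882), and it fell by 1.44 ± 0.26 in WT (adjusted p = 0.00324). The WT call held under all 20 alternatives. The DKO call was lost without DKO unstimulated 2 (difference -1.09, adjusted p = 0.0887) and where the fit held only the DKO groups (adjusted p = 0.0674). Cr2 was at 4.73, 5.51 and 5.60 in DKO CpG isolates, against 5.78 and 6.95 in DKO unstimulated isolates. In WT it was at 5.81, 5.51 and 5.61 after CpG, against 6.71 and 6.82 without it. The groups did not overlap within a genotype, but the unstimulated DKO arrays lay far apart, and DKO unstimulated 1 was at the level of WT CpG 1. The Cr2 difference was -1.09 ± 0.32 in DKO (adjusted p = 0.0586), and it passed without DKO unstimulated 1 (difference -1.67, adjusted p = 0.0166) or DKO CpG 3 (-1.25, 0.0347). It was -0.51 without DKO unstimulated 2 (adjusted p = 0.403) and -0.66 without both DKO arrays low in macrophage markers (adjusted p = 0.18). In WT Cr2 fell by 1.12 ± 0.32 (adjusted p = 0.0315), and this call was lost when any 1 of the 5 WT arrays was left out, with adjusted p of 0.0572 to 0.159. Averaged over genotypes Cr2 fell by 1.11 ± 0.23 (adjusted p = 0.00447).

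The surface proteins of mature B cells differed in their range over the 10 arrays, which was 1.55 log2 units for Ms4a1 and 0.74 for Fcer2a. Ms4a1 was at 5.73, 5.92 and 6.61 in DKO CpG isolates, against 6.38 and 7.29 in DKO unstimulated isolates. In WT it was at 6.22, 6.47 and 6.56 after CpG, against 7.12 and 6.96 without it. Groups were separate in WT and overlapped in DKO, where DKO CpG 3 lay above DKO unstimulated 1. Neither genotype passed on its own in the fit of all arrays, with -0.75 ± 0.29 in DKO (adjusted p = 0.131) and -0.62 ± 0.29 in WT (adjusted p = 0.163). The DKO difference passed without DKO unstimulated 1 (-1.20, adjusted p = 0.0479) or DKO CpG 3 (-1.01, adjusted p = 0.0235), and it was -0.30 without DKO unstimulated 2 (adjusted p = 0.657). The WT difference passed without both DKO arrays low in macrophage markers (adjusted p = 0.00906) or with only the WT groups fitted (0.0103). Both differences passed with the title numbering as a block (adjusted p = 0.033 in DKO and 0.00641 in WT) and with Y-linked signal as a covariate (0.00811 in DKO and 0.00678 in WT). Averaged over genotypes Ms4a1 fell by 0.68 ± 0.20 (adjusted p = 0.0268), a call lost under 6 of 19 alternatives, each of which left out 1 array. The adjusted p was 0.094 without WT unstimulated 1, 0.0631 without WT unstimulated 2, 0.0627 without WT CpG 1, 0.0558 without DKO CpG 1, 0.0549 without DKO CpG 2 and 0.111 without DKO unstimulated 2. Fcer2a was at 5.13, 5.28 and 5.29 in DKO CpG isolates, against 5.51 and 5.45 in DKO unstimulated isolates. WT isolates had 5.70, 4.96 and 5.52 after CpG, against 5.48 and 5.57 without it. These values lay below the array median on 8 of 10 arrays, and the average difference was -0.19 (95% interval -0.48 to 0.11, adjusted p = 0.34).

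Pax5 was the gene of the list with the smallest average difference. It was at 5.80, 5.88 and 6.09 in DKO CpG isolates, against 6.26 and 6.09 in DKO unstimulated isolates. In WT it was at 6.0, 6.56 and 5.66 after CpG, against 6.01 and 5.88 without it. The 3 WT CpG arrays spanned the values of all other groups. The difference was -0.25 ± 0.22 in DKO (adjusted p = 0.544) and 0.13 ± 0.22 in WT (adjusted p = 0.746), where it was -0.11 without WT CpG 2, with an average of -0.06 (95% interval -0.40 to 0.28). The average differences of Bank1, Cd22, Cd79b, Ms4a1, Blk and Cr2 lay below that interval. It overlapped the 95% intervals of Blk (-0.94 to -0.35) and Ms4a1 (-1.13 to -0.23). RMA compresses differences at values this near the array median, so the interval does not bound the change in Pax5 RNA.

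**Figure D2:**
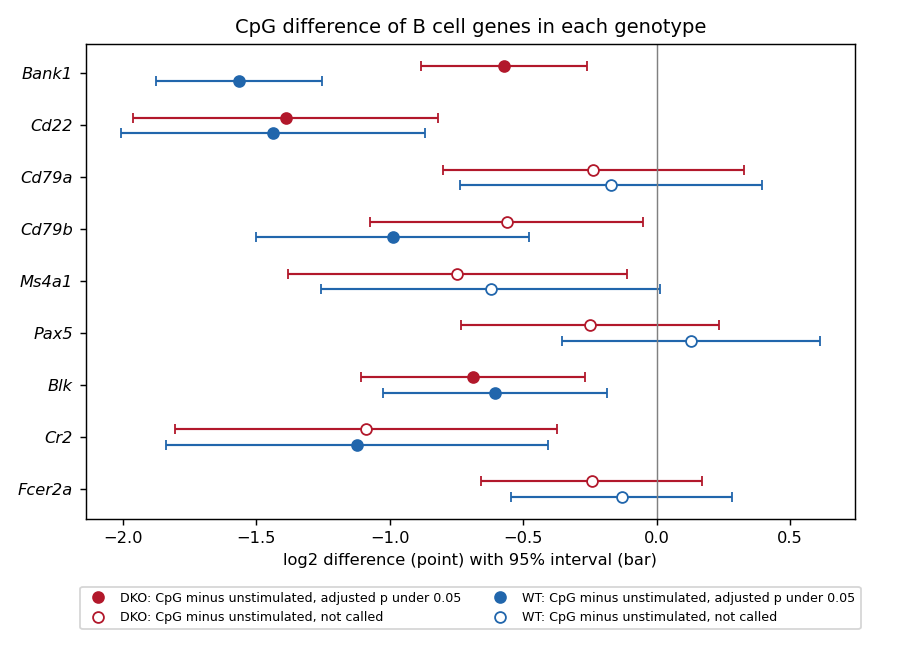
Log2 difference after CpG (horizontal axis, CpG minus unstimulated) of the 9 B cell genes in DKO and in WT, with 95% intervals from limma. Bank1, Cd22, Cd79b, Blk and Cr2 lie below 0 with their whole interval in both genotypes, Pax5, Cd79a and Fcer2a cross 0 in both, and Bank1 has the widest gap between DKO (-0.57) and WT (-1.56). An interval off 0 equals an unadjusted p under 0.05 in limma. Of all 13371 genes, 3344 in DKO and 4368 in WT reached that level in either direction. After adjustment Cd79b and Cr2 did not pass in DKO (adjusted p = 0.159 and 0.0586).

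The RefSeq promoter windows (GRCm38.p6, 300 bases around the annotated start) of 3 genes are shown because their responses span the list: Bank1 and Cd22 fell most in WT and Cd79a passed no test. Capitals mark matches on either strand to an EBF core (CCCNNGGG), an IRF motif (GAAANNGAA) or a PU.1 motif (GAGGAA), each spelled out as searched. The octamer ATGCAAAT, read by POU factors, was searched too.
Bank1, chr3:136326017-136326316, minus strand: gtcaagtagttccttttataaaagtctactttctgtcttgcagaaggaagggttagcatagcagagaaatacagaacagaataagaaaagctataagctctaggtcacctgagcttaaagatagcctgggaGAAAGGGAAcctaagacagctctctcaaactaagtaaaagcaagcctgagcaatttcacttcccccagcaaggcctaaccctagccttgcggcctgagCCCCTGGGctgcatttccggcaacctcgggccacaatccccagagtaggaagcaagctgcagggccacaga
Cd22, chr7:30878979-30879278, minus strand: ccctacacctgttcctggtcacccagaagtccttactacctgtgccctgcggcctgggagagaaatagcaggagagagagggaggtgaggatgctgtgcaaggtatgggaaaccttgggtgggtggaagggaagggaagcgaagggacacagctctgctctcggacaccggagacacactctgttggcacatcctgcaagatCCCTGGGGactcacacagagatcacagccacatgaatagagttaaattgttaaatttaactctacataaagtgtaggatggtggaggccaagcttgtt
Cd79a, chr7:24897247-24897546, plus strand: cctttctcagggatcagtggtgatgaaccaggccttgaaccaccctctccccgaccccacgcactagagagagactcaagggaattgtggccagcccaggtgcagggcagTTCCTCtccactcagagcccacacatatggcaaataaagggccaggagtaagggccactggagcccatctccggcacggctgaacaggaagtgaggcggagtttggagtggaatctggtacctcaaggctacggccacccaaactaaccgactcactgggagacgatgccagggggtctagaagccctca
Bank1 holds 1 EBF core match, at -21 from the start, and 1 IRF match at -119. Cd22 holds 1 EBF core match at -48, and Cd79a 1 PU.1 match at -140. Of 32851 mouse windows of the same length, 13.7% hold the EBF core, 8.56% the IRF motif, 28.3% the PU.1 motif and 1.74% the octamer, so each of these motifs is present in many windows. The windows of Pax5, Cr2 and Fcer2a hold no match to the 4 motifs. No window was listed for Cd79b, Ms4a1 and Blk. A match is a description of the letters only, with no binding data behind it.

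No B cell gene passed the threshold between DKO and WT isolates. In unstimulated isolates 0 of 9 genes passed (limma, 1 of 9 at an unadjusted p under 0.05), with DKO minus WT differences of -0.57 to 0.36 and 0.00748% of all genes called. After CpG 0 of 9 passed (1 of 9 unadjusted), with differences of -0.36 to 0.42 and 0.12% of all genes called. Averaged over stimulation, 0 of 9 passed at either level, and 0.0972% of all genes were called. At an unadjusted p under 0.05 in limma, 619, 1918 and 1556 of all 13371 genes passed without stimulation, after CpG and on average. The counts over all genes moved with the processing: 1, 16 and 13 genes called without stimulation, after CpG and on average were 407, 800 and 913 when Y-linked signal was a covariate, and the 16 after CpG were 296 with the title numbering as a block and 267 without DKO CpG 1. Under each of these settings 0 of the 9 B cell genes passed. The widest such averages were -0.38 for Cr2 (95% interval -0.89 to 0.13, adjusted p = 0.552) and 0.33 for Cd79a (95% interval -0.07 to 0.73, adjusted p = 0.51). Intervals of this width leave differences of moderate size not detectable with 2 or 3 arrays a group. The mean level of 10 neutrophil markers was 5.42 to 6.97 in DKO CpG isolates, against 6.93 to 8.64 in WT CpG isolates. Without stimulation it was 5.59 to 6.15 in DKO, against 7.11 to 7.79 in WT. In limma 0 of these markers passed between genotypes in either state, and their part in the B cell values was not tested.

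Bank1 was the gene with the unadjusted p under 0.05 in each state. Its DKO arrays lay below its WT arrays without stimulation, by 0.57 ± 0.15 (unadjusted p = 0.00388, adjusted p = 0.862), and above them after CpG, by 0.42 ± 0.13 (unadjusted p = 0.00666, adjusted p = 0.163). The groups did not overlap in either state. The CpG effect of Bank1 in DKO minus that in WT was 0.99 ± 0.20 (95% interval 0.55 to 1.43, unadjusted p = 0.000475, adjusted p = 0.635), and it ranged over 0.88 to 1.10 under the alternatives, with adjusted p of 0.224 or more. Of the 9 genes 0 passed this interaction test after adjustment and 1 did before it. Of all genes 0.00748% were called after adjustment, and 756 of 13371 had an unadjusted p under 0.05. The other 8 interaction values ran from -0.38 to 0.43. The smaller response of Bank1 in DKO is a measured difference that did not pass the correction over all genes.

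**Figure D3:**
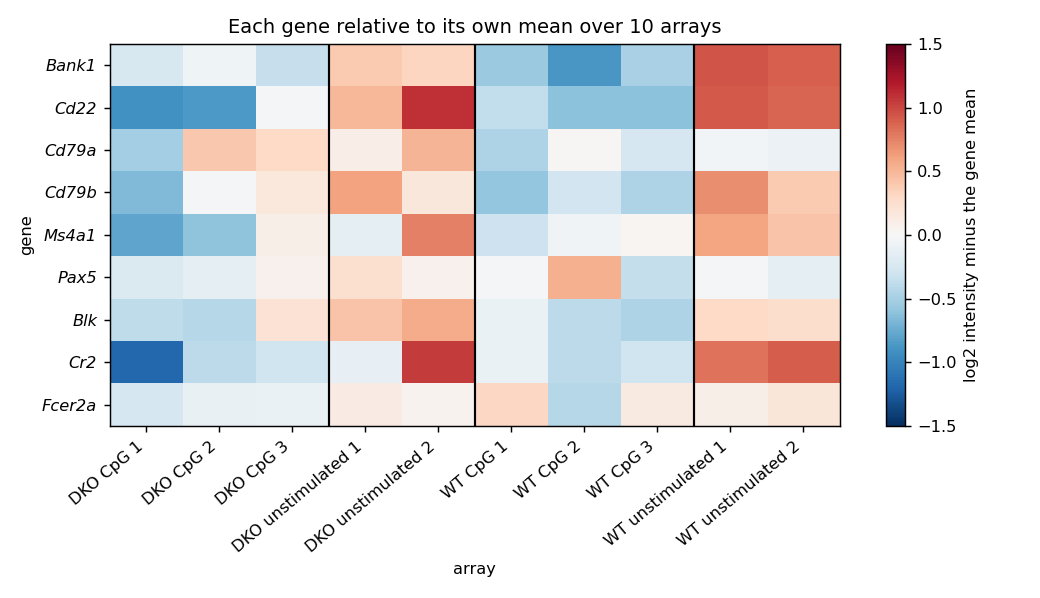
Log2 intensity of each B cell gene minus its own mean over the 10 arrays (colour), with genes as rows and arrays as columns ordered DKO CpG, DKO unstimulated, WT CpG and WT unstimulated. The column DKO CpG 1 is below the mean for all 9 genes, DKO CpG 3 is above it for 5, and DKO unstimulated 2 is above it for all 9.

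The mean of the 9 genes was more spread over the DKO CpG arrays than over the WT CpG arrays. Single genes differed in this: the SD after CpG was 0.14 in DKO and 0.21 in WT for Bank1, 0.15 and 0.45 for Pax5 and 0.09 and 0.39 for Fcer2a. Centred on each gene's own mean, the 9 genes averaged -0.57, -0.25 and 0.01 on DKO CpG 1, 2 and 3, and 0.24 and 0.51 on DKO unstimulated 1 and 2. WT CpG arrays were at -0.24, -0.28 and -0.31, and WT unstimulated arrays at 0.48 and 0.42. DKO CpG 1 was the lowest of its group for 7 of 9 genes and DKO CpG 3 the highest for 7 of 9. DKO CpG 3 and DKO unstimulated 2, each at the top of its group on this measure, were the arrays low in macrophage markers and, unlike the other 3 DKO arrays, without Y-linked signal. Their part in the B cell values was not tested. Without both arrays, 2 genes fell after CpG in DKO, 6 in WT and 6 on average, against 4.34%, 16.4% and 19.2% of all genes. Within the title numbers of 20 and over, the single DKO CpG array lay below the single DKO unstimulated array for 8 of 9 genes, with differences of -1.36 to 0.00, as it did for 52.5% of all genes tested. Under 20, all 9 differences in DKO and 8 of 9 in WT were below 0, against 58.7% and 54.3% of all genes.

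The counts in DKO rested on few arrays. Without DKO unstimulated 2, 0 of the 9 genes were called in DKO, and without DKO CpG 1, 1 was. A fit of the DKO groups alone called 0, and 5 were called with the title numbering as a block or with Y-linked signal as a covariate. In DKO the share of all genes called moved as well: it was 10.3% with all arrays, 3.16% without DKO unstimulated 2, 5.5% without DKO CpG 1, 3.01% with the DKO groups alone, 13.1% with the block and 14.2% with the covariate. In WT, 2 of the 9 genes were called without WT unstimulated 1, and 3 without WT unstimulated 2, WT CpG 2 or WT CpG 3. Of all genes 21.6% were called in WT with all arrays, 10.6% when WT unstimulated 1 was left out, 9.55% for WT unstimulated 2, 16.9% for WT CpG 2 and 17.1% for WT CpG 3. The count averaged over genotypes stayed between 5 and 6.

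Other genes of the B cell programme did not fall as a block. Among further surface proteins and coreceptors of B cells, 8 of 20 tested genes fell and 4 rose on average over genotypes, against 18.6% of all genes lower and 11.2% higher, with a median difference of -0.27. Cd40, the receptor for T cell help that DCs also carry, rose by 2.24 ± 0.22 in DKO (adjusted p = 0.00037) and 2.59 ± 0.22 in WT (adjusted p = 7.54e-05). Cd180, a Toll-like receptor relative that marks B cells and some DCs, fell by 1.38 ± 0.18 in DKO and fell by 1.55 ± 0.18 in WT (adjusted p = 0.00179 and 0.000331). The Fc receptor-like protein Fcrl1 fell by 0.72 ± 0.16 in DKO and fell by 0.81 ± 0.16 in WT (adjusted p = 0.0206 and 0.00583). Cxcr5, the receptor that guides cells to B cell follicles, differed by 0.62 ± 0.18 in DKO (adjusted p = 0.0572), whereas in WT it rose by 1.41 ± 0.18 (adjusted p = 0.000531). The interaction test for Cxcr5 gave -0.79 ± 0.26 (adjusted p = 0.773). Fcmr, an Fc receptor for IgM, fell by 0.70 ± 0.17 in DKO (adjusted p = 0.0297), and its difference was -0.33 ± 0.17 in WT (adjusted p = 0.214). Single arrays decided some of these calls: that of Fcrl1 in WT was lost without WT unstimulated 1 (adjusted p = 0.0694), that of Fcrl1 in DKO without either unstimulated DKO array or DKO CpG 1 or 2 (0.056 to 0.118) and that of Fcmr in DKO without DKO unstimulated 2 or DKO CpG 1 or 2 (0.0838 to 0.2). The difference of Cxcr5 in DKO passed without WT CpG 2 (adjusted p = 0.0314). The count of genes that rose was 2 without WT unstimulated 1, WT unstimulated 2 or WT CpG 3.

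Antigen receptor signalling genes, many of which DCs use as well, moved both ways. On average over genotypes 6 of 19 tested genes fell and 4 rose, against the same 18.6% and 11.2% of all genes, with a median of 0.09. The lipid phosphatase Inpp5d (SHIP1) fell by 0.81 ± 0.19 in DKO and fell by 1.89 ± 0.19 in WT (adjusted p = 0.0248 and 0.00016). Rasgrp3, an activator of Ras, fell by 1.23 ± 0.20 in DKO and fell by 1.68 ± 0.20 in WT (adjusted p = 0.0044 and 0.000297). The ubiquitin ligase Cblb rose by 0.79 ± 0.14 in DKO and rose by 0.76 ± 0.14 in WT (adjusted p = 0.00754 and 0.00378). Pik3ap1 (BCAP), a PI3-kinase adaptor, rose by 0.56 ± 0.13 in DKO and rose by 0.76 ± 0.13 in WT (adjusted p = 0.0249 and 0.00285). Ptpn6 (SHP-1), a phosphatase that Cd22 recruits, fell by 0.45 ± 0.10 in DKO (adjusted p = 0.0193), and its difference was -0.26 ± 0.10 in WT (adjusted p = 0.0938). The DKO call of Inpp5d was lost without DKO unstimulated 1 (adjusted p = 0.124) or 2 (0.0913), that of Rasgrp3 without DKO unstimulated 2 (0.0507) and that of Ptpn6 without DKO unstimulated 1, DKO unstimulated 2 or DKO CpG 2 (0.054 to 0.102). Pik3ap1 lost its DKO call without either unstimulated DKO array, DKO CpG 1 or DKO CpG 2 (adjusted p = 0.0576 to 0.136). Cblb lost its WT call without WT unstimulated 1 (adjusted p = 0.0512) and its DKO call without DKO unstimulated 1 (0.0564). The count of genes that rose was 2 without WT unstimulated 2.

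B-lineage transcription factors gave 7 of 19 lower and 3 higher on average over genotypes, against 18.6% and 11.2% of all genes, with a median of -0.26. Irf8, which DCs and B cells share, fell by 0.91 ± 0.16 in DKO and fell by 1.32 ± 0.16 in WT (adjusted p = 0.00751 and 0.000404). Mef2c fell by 1.04 ± 0.23 in DKO and fell by 1.67 ± 0.23 in WT (adjusted p = 0.0202 and 0.00077). With the mean of all its probe sets Mef2c fell by 0.55 in DKO and fell by 0.90 in WT (adjusted p = 0.0468 and 0.00246). Pou2f2 (Oct-2) differed by 0.35 ± 0.11 in DKO (adjusted p = 0.0746), and in WT it rose by 0.90 ± 0.11 (adjusted p = 0.000398). Ikzf1 differed by 0.23 ± 0.16 in DKO (adjusted p = 0.419), and in WT it rose by 0.55 ± 0.16 (adjusted p = 0.0297). Bcl11a fell by 0.97 ± 0.23 in DKO and fell by 0.79 ± 0.23 in WT (adjusted p = 0.0249 and 0.033). Irf4 fell by 0.82 ± 0.21 in DKO (adjusted p = 0.0309), and its difference was -0.12 ± 0.21 in WT (adjusted p = 0.758). Without DKO unstimulated 2, DKO CpG 1 or DKO CpG 2, the DKO calls of Mef2c (adjusted p = 0.0582 to 0.154), Bcl11a (0.0609 to 0.181) and Irf4 (0.055 to 0.221) were lost, that of Irf4 also without WT CpG 1 (0.0511), and the Irf4 difference was -0.44 without DKO unstimulated 2. The WT call of Bcl11a was lost without either unstimulated WT array, WT CpG 2 or WT CpG 3 (adjusted p = 0.059 to 0.199), and with the mean of all its probe sets (difference -0.40, adjusted p = 0.11). Ikzf1 lost its WT call without either unstimulated WT array, WT CpG 1 or WT CpG 3 (adjusted p = 0.0813 to 0.199). The count of factors that fell was 3 without WT unstimulated 2. The more B-restricted Ebf1 and the octamer coactivator Pou2af1 averaged -0.25 ± 0.12 (adjusted p = 0.153) and 0.03 ± 0.14 (adjusted p = 0.908), and the sign for Pou2af1 turned with 5 of the 10 arrays left out in turn. Both lay near the array median, Ebf1 at 5.62 to 6.32 and Pou2af1 at 5.57 to 6.12, where RMA compresses differences.

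Immunoglobulin transcripts passed no test after CpG. Ighm, the heavy chain of IgM, was at 12.13, 12.68 and 12.58 in DKO CpG isolates, against 12.33 and 12.45 in DKO unstimulated isolates. WT isolates had 12.18, 12.45 and 12.12 after CpG, against 12.26 and 11.64 without it. The arrays overlapped in both genotypes, and the average difference was 0.19 ± 0.15 (adjusted p = 0.401), or -0.0009 where all probe sets of the gene were averaged. Of the 2 immunoglobulin list genes tested, Ighm and Jchain, 0 passed (limma, 1 of 2 at an unadjusted p under 0.05), and Jchain passed without WT unstimulated 1 (adjusted p = 0.0489) or DKO CpG 1 (0.0439). The Jchain difference of 1.10 was 0.70 without WT unstimulated 2 (adjusted p = 0.343) and 0.72 without DKO CpG 2 (0.0825). Of all 13371 genes, 5219 had an unadjusted p under 0.05 on average over genotypes. Cd72, Ighd, Igkc and the Iglc genes had no probe set with 1 symbol and were not analysed here.

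**Figure D4:**
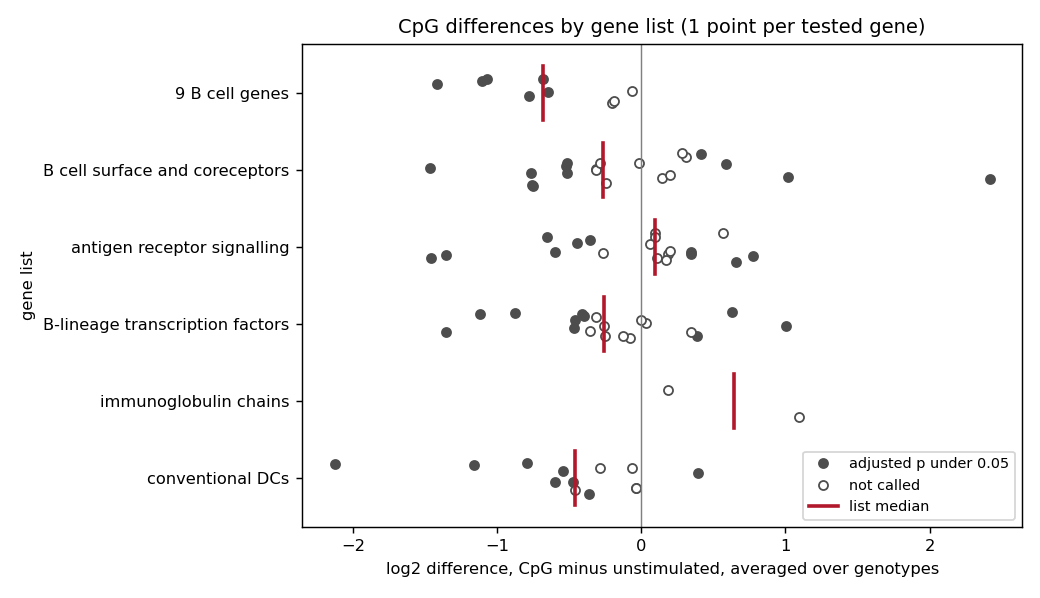
Log2 difference after CpG averaged over genotypes (horizontal axis, CpG minus unstimulated) for every tested gene of 6 lists (vertical axis), with 1 point per gene, filled where the adjusted p was under 0.05, and a line at the list median. The median of the 9 B cell genes is -0.68, that of the further B cell surface genes -0.27 and that of conventional DC genes -0.46, and the surface, signalling and transcription factor lists hold filled points on both sides of 0.

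Markers of other cells moved beside the B cell genes to different degrees. The 9 B cell genes had a mean level of 6.22 to 6.80 in DKO CpG isolates, against 7.03 to 7.30 in DKO unstimulated isolates, and of 6.49 to 6.55 in WT CpG isolates, against 7.21 to 7.27 in WT unstimulated isolates. Of 13 conventional DC markers tested, 7 fell and 1, Batf3, rose on average over genotypes, against 18.6% of all genes lower and 11.2% higher. The Batf3 call was lost without WT unstimulated 2 (adjusted p = 0.0971), DKO unstimulated 2 (0.0795) or both DKO arrays low in macrophage markers (0.0902). Their mean level was 9.57 to 9.77 in DKO CpG and 10.09 to 10.10 in DKO unstimulated isolates, and 9.49 to 9.53 in WT CpG and 10.04 to 10.10 in WT unstimulated isolates. The Itgax difference was -0.44 ± 0.15 in DKO (adjusted p = 0.0915), and Itgax fell by 0.76 ± 0.15 in WT (adjusted p = 0.00493). The WT call of Itgax was lost without WT unstimulated 2 (adjusted p = 0.0599). Of 9 T cell markers 2 fell, Cd4 and Cd5, while the T cell receptor chain Cd3e lay at 5.22 to 6.28 over all arrays. Of 11 plasmacytoid DC markers 2 rose (Tcf4 and Klk1) and 2 fell (Ccr9 and Lair1), and of 9 neutrophil markers Mmp9 fell. The T cell and plasmacytoid DC counts lay near the shares of all genes. Of 11 splenic macrophage markers and of 7 NK cell markers 0 passed in limma on average over genotypes (2 of each at an unadjusted p under 0.05). At that unadjusted level 5219 of all 13371 genes passed. Without both DKO arrays low in macrophage markers, 5 of the macrophage markers fell and 2 rose, 3 neutrophil markers rose and 0 fell, and 2 NK cell markers rose. In that fit 6 of the 9 B cell genes fell, as with all arrays. With both arrays left out, 29.9% of all genes were called, 19.2% of all being lower and the rest of the called genes higher. Without DKO CpG 3 alone, 3 of 9 neutrophil, 3 of 7 NK cell and 2 of 11 macrophage markers rose. With that array left out, 32.1% of all genes were called, 19.9% of all being lower and the rest of the called genes higher. With the title numbering as a block 5 of 9 neutrophil and 3 of 7 NK cell markers rose. There 33.7% of all genes were called, 20.9% of all being lower and the rest of the called genes higher. Of 7 plasma cell markers 2 rose, Prdm1 and Xbp1. The small counts of the T cell, plasmacytoid DC, neutrophil and plasma cell lists each dropped by 1 when any of several single arrays was left out. The part of these cells in the B cell values was not tested.

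Genes with a profile like that of the 9 were sought among 12112 tested genes. Likeness was the root mean square difference, over the 10 arrays, between a gene's value centred on its own mean and the mean of the 9 genes centred likewise. The 10 nearest were Ttc39a (0.09 log2 units), Gabarapl2, Tmem135, Ufsp2, Rmnd1, Rgs19, Asf1b, Coa6, Msl3 and Egln1 (0.11). The 9 genes themselves lay at 0.16 (Blk) to 0.40 (Pax5) from their own mean profile, whose root mean square was 0.37. As many as 1284 genes lay within 0.25, so this shape over 10 arrays was common. Ttc39a, the nearest, was at 6.71, 6.98 and 7.17 in DKO CpG isolates, against 7.59 and 7.53 in DKO unstimulated isolates. In WT it was at 6.89, 7.02 and 6.90 after CpG, against 7.72 and 7.68 without it. Its CpG arrays lay below its unstimulated arrays in both genotypes, as in the mean profile by which it was chosen.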

How the data were processed

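Splenic CD11c+ cells were measured in 10 samples on 10 arrays. The authors deposited log2 intensities, 1 per probe set and array, for which the submitters' processing notes name RMA and the Affymetrix Expression Console. Neither version, nor a genome build, is given in the sources used here. RMA corrects background, equalises array distributions and summarises probes, which compresses differences of dim probe sets. The labels' protocols name a kit for a first batch and assign no sample to it, so title numbers (20 and over, or under 20) stood in for a batch. Names came from the platform annotation: of 41345 probe sets, 23521 had 1 symbol, 1814 had several and 16010 had none, and 23328 matched a gene of the reference table. Genes entered the tests when they were above the median of all probe sets on at least 2 of 10 arrays.

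Group means of all 10 arrays were fitted with limma 3.58.1 in R 4.3.3 (lmFit, eBayes without trend or robust, 6 residual and 4.49 prior degrees of freedom). Tests were two-sided, with Benjamini-Hochberg adjustment over 13371 genes and a call at an adjusted p under 0.05. Errors are standard errors of the fit. The scripts were tested on simulated data. Replicate numbers follow accession order. Every member is named, with up to 4 called genes per B-lineage list and CpG comparison by smallest p, the 10 genes of most similar profile, the targeted genes and defining markers of other cells. Ebf1, Pou2af1, Ighm, Jchain and the called markers of other cells were named outside that rule, after their values were seen. The members and lists were chosen with earlier results of these data known. The number of arrays limits the precision.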

Additional observations from a re-analysis of the deposited data

How the results depend on the processing

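Of 63 single values (9 genes in 7 comparisons), 1233 alternatives were computed: 1118 kept their sign and their side of the threshold, 42 lost a call, 13 gained one, and 60 changed sign, 0 of them a called value. The count of B cell genes called after CpG was 3 in DKO and 0 to 4 with 1 array left out, and 5 in WT and 2 to 5 with 1 array left out. In DKO it was 5 with the title numbering as a block, 5 with Y-linked signal as a covariate and 0 with the DKO groups alone, where fewer arrays estimate the spread. Averaged over genotypes it was 5 to 6 with 1 array left out. Each genotype comparison and the interaction had 0 calls under every alternative run. Without both DKO arrays low in macrophage markers, or with titles under 20 alone (both chosen after seeing the data), the counts after CpG were 2 in DKO, 6 in WT and 6 on average. With 1 array left out, the CpG difference of Pax5 in WT ranged over -0.11 to 0.33, that of Fcer2a in WT over -0.28 to 0.086, that of Cd79a in DKO over -0.44 to 0.049 and that of Pax5 averaged over genotypes over -0.18 to 0.042. DKO minus WT averaged over stimulation turned to 0.015 for Bank1 with titles under 20 alone and to 0.085 for Cr2 with the Y-linked covariate. Among 40 values of other named genes, 28 of them called, 794 alternatives lost a call 61 times, gained one 7 times and changed sign 7 times, and 11 of the called values kept their call under all. The sign changes were those of Pou2af1, which ranged over -0.086 to 0.15 with 1 array left out, of Ighm, at -0.0009 with the mean of its probe sets, and of Irf4 in WT, which ranged over -0.30 to 0.067 with 1 array left out. The cause of these turns was not tested, and none of the values whose sign turned was called. Over all genes, 770 lower and 607 higher calls in DKO became 402 with the DKO groups alone and 423 to 1909 with 1 array left out, and 1783 lower and 1102 higher calls in WT became 1277 to 3226 with 1 array left out. DKO minus WT calls over all genes, 1 unstimulated, 16 after CpG and 13 on average, became 407, 800 and 913 with the Y-linked covariate, and those after CpG became 296 with the title block and 2 to 267 with 1 array left out. No paired analysis was possible because the replicate numbers follow accession order only and pair no samples. With 2 or 3 arrays a group and Fcer2a, Cr2, Pax5 and, on some arrays, Cd79a near the array median, small changes of these genes were not resolved.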

Other observations

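Plasma cell transcripts stood high on a single array. Jchain, which joins IgM and IgA subunits in secreted antibody, was at 8.31, 10.76 and 8.66 in DKO CpG isolates, against 8.10 and 7.80 in DKO unstimulated isolates. WT isolates had 8.08, 8.10 and 8.40 after CpG, against 8.10 and 6.50 without it. DKO CpG 2 was thus the highest of all 10 arrays and WT unstimulated 2 the lowest, and the average CpG difference was 1.10 ± 0.45 (limma adjusted p = 0.0924). It was 0.70 without WT unstimulated 2 (adjusted p = 0.343) and 0.72 without DKO CpG 2 (0.0825), and it passed without WT unstimulated 1 (0.0489) or DKO CpG 1 (0.0439). Mzb1, a secretory chaperone of plasma cells, was at 6.63, 7.23 and 6.58 in DKO CpG isolates, against 6.89 and 6.64 in DKO unstimulated isolates and 6.15 to 6.47 on the 5 WT arrays. DKO CpG 2 was again the highest array. Prdm1, a factor of plasma cells and of activated DCs, was at 8.65 to 9.23 in DKO CpG isolates, against 7.04 and 7.44 in DKO unstimulated isolates. In WT it was at 8.95 to 9.13 after CpG, against 7.49 and 7.23 without it. The 9 B cell genes averaged -0.25 on DKO CpG 2 after centring, between the other DKO CpG arrays.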
